A study of Mus musculus with 46 samples.

Results

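The regions described here are stretches of open chromatin in the nuclei of AgRP neurons that were less accessible in fasted than in fed mice and stayed at the fasted level after leptin. They are peaks of the deposited ATAC-seq table, which gives the log2 of read counts as scaled by the authors (log2 CPM) for 90196 regions in 6 libraries. A region was taken when the mean of its 6 values was at least 1, the mean of the fasted libraries lay at least 1 below the mean of the fed libraries, the higher fasted library lay below the lower fed library, and the mean of the leptin libraries lay less than 0.5 from the mean of the fasted libraries. By this rule 3066 regions were found among the 90196, of which 74904 had a mean of at least 1, so that 4.09% of the latter are included. The members were chosen by these same accessibility values, so the differences between the 3 states at them are given as a description and without a test.

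The mice were male NuTRAP-AgRP mice on C57BL/6J, 6 to 11 weeks of age, that carried the NuTRAP cassette (a GFP-tagged L10a ribosomal protein and an mCherry-tagged RANGAP) behind a stop that Cre removes, together with AgRP-IRES-Cre. All groups shared this genotype, and expression of the tags depends on Cre driven from the Agrp locus. Fed mice ate ad libitum and received PBS, fasted mice were fasted for 18 to 20 hours and received PBS, and leptin mice were fasted and received leptin at 5 mg per kg, with collection 3 hours after the injection. Each library pooled the arcuate nuclei of 4 mice, and each state had 2 ATAC-seq libraries. The other libraries used were ATAC-seq of sorted AgRP(+) and AgRP(-) nuclei from fed, untreated males (2 libraries each), ribosome-bound (TRAP) RNA of AgRP neurons (3 fed, 4 fasted and 4 leptin libraries), and CUT&RUN peak lists of 1 sample each: CTCF in AgRP nuclei and in whole cerebellum of mice, and IRF3 in AgRP nuclei of fed males of the IRF3-2D overexpression model. Promoters of the AgRP neuron markers were open in the sorted AgRP(+) nuclei, with a summed accessibility of 397 and 395 CPM against 168 and 157 CPM in AgRP(-) nuclei, and in the libraries of the 3 states (446 to 531 CPM), and the most accessible of them was that of Agrp itself. No region described here lay at the promoter of any marker gene of AgRP or POMC neurons, glia, tanycytes or vessels. Of the 15761 promoter regions with a mean of at least 1, only 102 were members. These marker lists hold few promoter regions, so the absence of members there is not read as a result. Summed promoters of endothelial and mural markers (2 regions, of 2 of 7 genes) were at 5.32 and 8.59 CPM in fed and 16.3 to 20.5 CPM in the other libraries. In the sorted nuclei they were at 6.11 and 4.38 CPM in AgRP(+) and 1.61 and 1.92 CPM in AgRP(-) nuclei. Those of astrocyte markers (6 regions) were at 38.8 and 36 against 43.4 to 57.5 CPM. General neuron (17 regions, 339 and 334 against 298 to 315 CPM) and oligodendrocyte markers (2 regions, of 2 of 9 genes, 54.5 and 58.6 against 43.5 to 52 CPM) went the other way. In AgRP(+) against AgRP(-) nuclei the astrocyte sum was 49.9 and 41.1 against 57.3 and 57.9 CPM. The neuron sum was 285 and 256 against 228 and 229 CPM, and the oligodendrocyte sum 52.8 and 59.2 against 45.9 and 51 CPM. The endothelial and oligodendrocyte sums were thus not lower in AgRP(+) nuclei. In the remaining marker lists fed libraries overlapped the others. The part of cell mixture in the members was not tested.

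AgRP neurons of the arcuate nucleus release the orexigenic peptides AgRP and NPY and the transmitter GABA, and are active when energy stores are low. Leptin, secreted by adipose tissue, signals through the leptin receptor and the transcription factor STAT3 and opposes their activity. ATAC-seq reports where a transposase can reach DNA, which marks promoters, enhancers and sites bound by architectural proteins such as CTCF, which anchors chromatin loops.

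The central 300 bases of 7 named regions are printed here because each carries a feature that the results below return to. All are on the plus strand of mouse GRCm38.p6 (mm10), 5' to 3', in lower case, with the bases that match the motif in capitals. The first 2 hold a STAT motif (TTCNNNGAA, the half-sites that STAT proteins bind): region 95819 had the largest fall of all members, and region 99484 was among those with the largest difference between AgRP(+) and AgRP(-) nuclei. Region 71891 holds an RFX motif, region 33446 holds the CTCF core 4 times, region 44985 in an intron of Grin2a holds an interferon-stimulated response element, region 80948 in an intron of Kank4 holds an AP-1 motif, which was rare among the members, and region 92911 near Asb4 holds a CCAAT box only.
Region 95819 (chr6:76449918-76450217): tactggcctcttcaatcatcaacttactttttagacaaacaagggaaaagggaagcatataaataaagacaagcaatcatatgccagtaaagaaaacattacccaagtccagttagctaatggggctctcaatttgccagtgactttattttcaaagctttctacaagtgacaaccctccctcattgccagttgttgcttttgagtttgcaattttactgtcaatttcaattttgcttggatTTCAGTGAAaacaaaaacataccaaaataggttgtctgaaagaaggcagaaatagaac
Region 99484 (chr6:141889676-141889975): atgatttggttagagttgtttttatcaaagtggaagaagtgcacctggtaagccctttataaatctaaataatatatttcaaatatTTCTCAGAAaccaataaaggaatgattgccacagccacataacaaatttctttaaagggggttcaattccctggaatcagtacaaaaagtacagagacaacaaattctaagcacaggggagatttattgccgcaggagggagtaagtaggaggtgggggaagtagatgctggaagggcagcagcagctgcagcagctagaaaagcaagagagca
Region 71891 (chr3:37769297-37769596): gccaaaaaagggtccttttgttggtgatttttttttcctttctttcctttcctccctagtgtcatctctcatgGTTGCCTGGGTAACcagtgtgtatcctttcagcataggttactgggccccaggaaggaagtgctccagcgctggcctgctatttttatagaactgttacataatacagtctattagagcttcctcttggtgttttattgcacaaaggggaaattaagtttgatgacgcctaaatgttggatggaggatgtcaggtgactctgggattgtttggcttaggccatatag
Region 33446 (chr13:110368598-110368897): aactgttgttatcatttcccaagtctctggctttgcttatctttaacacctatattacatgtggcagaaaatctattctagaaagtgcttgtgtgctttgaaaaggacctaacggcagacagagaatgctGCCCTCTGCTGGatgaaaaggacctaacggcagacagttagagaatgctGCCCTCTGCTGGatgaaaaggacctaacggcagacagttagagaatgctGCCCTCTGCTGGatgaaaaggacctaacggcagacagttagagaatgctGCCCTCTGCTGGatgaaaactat
Region 44985 (chr16:9680298-9680597): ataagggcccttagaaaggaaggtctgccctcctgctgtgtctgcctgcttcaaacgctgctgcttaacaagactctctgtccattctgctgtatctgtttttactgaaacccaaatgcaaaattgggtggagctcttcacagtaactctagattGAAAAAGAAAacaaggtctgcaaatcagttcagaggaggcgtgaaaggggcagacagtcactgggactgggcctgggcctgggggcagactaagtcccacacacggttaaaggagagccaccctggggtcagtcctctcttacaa
Region 80948 (chr4:98772119-98772418): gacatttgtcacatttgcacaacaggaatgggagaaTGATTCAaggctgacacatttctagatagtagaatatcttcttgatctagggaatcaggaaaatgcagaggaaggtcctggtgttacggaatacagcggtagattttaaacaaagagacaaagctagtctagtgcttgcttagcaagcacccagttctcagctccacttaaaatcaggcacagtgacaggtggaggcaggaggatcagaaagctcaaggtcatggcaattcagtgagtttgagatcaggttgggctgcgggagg
Region 92911 (chr6:5374997-5375296): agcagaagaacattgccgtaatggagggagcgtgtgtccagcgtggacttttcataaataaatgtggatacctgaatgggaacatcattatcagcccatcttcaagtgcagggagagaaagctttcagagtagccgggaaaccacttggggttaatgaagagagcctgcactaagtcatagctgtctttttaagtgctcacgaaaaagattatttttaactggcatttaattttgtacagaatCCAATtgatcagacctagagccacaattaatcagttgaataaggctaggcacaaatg
In region 33446 the 4 CTCF matches begin at bases 131, 180, 229 and 278 of the stretch, in steps of 49 bases, inside a repeated unit. The match in region 95819 covers bases 243 to 251 and that in region 99484 bases 87 to 95. A match to these letters is a description of the sequence and not evidence of binding.

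The median member region had a log2 CPM of 3.06 and 2.60 in the fed libraries, 1.46 and 1.36 in the fasted libraries and 1.32 and 1.48 in the leptin libraries. By these medians both fed libraries lay above the other 4, which were close to each other. Region by region the rule requires this of the fasted libraries, and of leptin only that its mean lie near the fasted mean. Over all 90196 regions the medians were 2.19 and 2.03 (fed), 2.26 and 2.24 (fasted) and 2.32 and 2.29 (leptin). The members took up 3.18% and 2.42% of all counted reads in the fed libraries, 1.11% and 1.07% in the fasted libraries and 1.01% and 1.12% in the leptin libraries. The median read count per member was 65 and 84 in fed, 41 and 39 in fasted and 34 and 47 in leptin libraries, at totals of 8263234 and 14324992 (fed), 15745558 and 15710305 (fasted) and 14455862 and 17190963 (leptin) reads on peaks. Most members therefore rest on few reads per library.

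**Figure D1:**
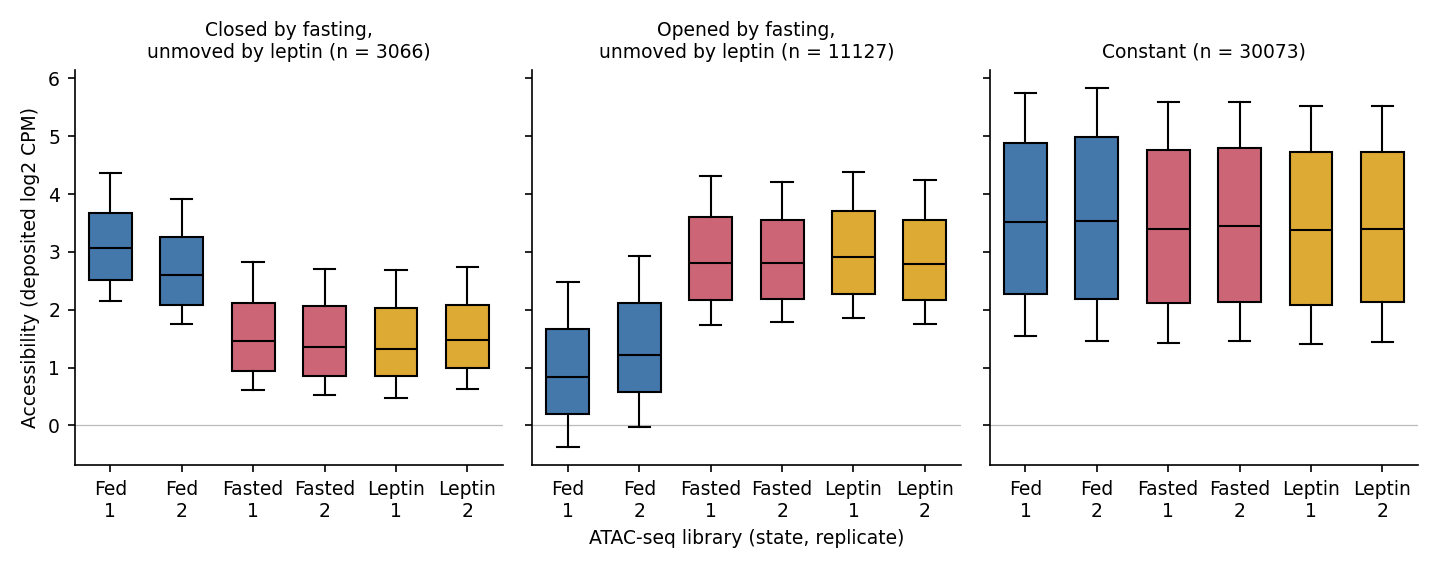
Accessibility (deposited log2 CPM, y axis) in each of the 6 ATAC-seq libraries (x axis) for the 3066 closed and leptin-unmoved regions, the 11127 regions opened by fasting and unmoved by leptin, and 30073 constant regions. Lines are medians, boxes quartiles and whiskers the 10th and 90th percentiles. The medians of the closed regions are 3.06 and 2.60 in fed libraries and between 1.32 and 1.48 in the other 4, with fed 1 above fed 2.

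The fall from fed to fasted had a median of -1.28 and reached -3.48 on the log2 scale. Of the members, 2159 (70.4%) fell by between 1 and 1.5 and 252 (8.22%) by 2 or more. The difference between leptin and fasted had a median of -0.04, with quartiles of -0.24 and 0.20. At 2375 members (77.5%) the leptin and fasted libraries overlapped, at 324 both leptin libraries lay above both fasted libraries and at 367 both lay below. Both leptin libraries stayed below both fed libraries at 3026 members (98.7%). These counts rest on the values that the rule used and have no share over all regions beside them. They describe the set and are not read as a result. The distances between replicates were of the order of the limit on the leptin difference: the within-state SD over the members was 0.46 in fed, 0.42 in fasted and 0.37 in leptin libraries.

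The thresholds cut through a continuum. The members nearest to the limit on the fall, such as region 7916 on chromosome 1, had a difference of -1, and the nearest regions left out, such as region 23035 on chromosome 12, had -0.995. There were 670 members with a fall between 1 and 1.1 and 847 regions that met the other conditions with a fall between 0.9 and 1. At the limit on leptin, region 82285 was inside with a leptin difference of 0.495 and region 77657 outside with 0.500, both on chromosome 4.

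The fed libraries differed from each other at the members. Fed 1, the shallowest library, lay above fed 2 at 2480 members (80.9%), with a median difference of 0.41, against 50.4% of all regions and a median difference of 0.01. Applying the rule without fed 1 gave 1951 regions, of which 1599 were members (52.2% of the members and 82% of the 1951). Without fed 2 it gave 5017 regions, of which 2618 were members (85.4% of the members and 52.2% of the 5017). Leaving out a fasted library kept 67.4% or 61.9% of the members, and leaving out a leptin library kept 81.3% or 81.1%. Among the regions given by number below, 29756, 5950, 56099, 40020, 9128, 38578, 101607, 94625, 99100, 108290, 35211, 110387, 78045, 11866, 6249, 74383, 33446, 61538, 36867, 9382, 81126, 81133, 50266 and 80950 do not pass without fed 1. The 1599 members that do pass had 3.50% at promoters, against 3.33% of all members, and further values of theirs are given with the AP-1, STAT and RFX motifs, the CUT&RUN peaks, the nuclei and the promoter genes. The part of sequencing depth in the excess of fed 1 was not tested.

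The members lay away from genes' start sites. Of the 3066 regions, 102 (3.33%) overlapped a promoter, taken as 1 kb either side of a start site, 89 (2.9%) an exon, 1623 (52.9%) an intron and 1252 (40.8%) none of these. Among all 74904 regions the shares were 21.0% at promoters, 3.44% in exons, 45.2% in introns and 30.3% outside genes. The median distance to the nearest start site was 37974 bases, against 18066 for all regions and 5300 for constant regions (mean at least 1 and both differences under 0.5), and 23.6% of members against 12.3% of all lay over 100 kb from any start site. Regions opened by fasting were also distal, with 3.19% at promoters and a median distance of 26929 bases. The GC content of the central 300 bases had a median of 45.0% in the members, 48.7% in all regions, 54.7% in constant regions and 45.3% in the opened regions. Members were spread over the chromosomes, from 1.96% of the regions of chromosome X to 4.31% of those of chromosome 3, here counted among all 90196 regions whatever their mean. Another member lay within 10 kb of 172 members (5.61%). Of the 11127 opened regions, 1842 (16.6%) had another opened region so near. Such a share grows with the number of regions in a set, so the sets are not compared by it.

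The 8 members with the largest fall lay outside genes, with 1 exception. Region 95819 (chr6:76449750-76450386) had a log2 CPM of 4.10 and 4.26 in fed, 0.74 and 0.65 in fasted and 1.54 and 0.63 in leptin libraries. It lay between genes, 47.7 kb from the nearest start site, that of Gm9008. Region 38101 (chr14:80690106-80690861), 690 kb from the start of Olfm4, had 5.28 and 4.04 in fed, 1.84 and 1.00 in fasted and 1.50 and 1.57 in leptin libraries, and region 88610 (chr5:89628857-89629418), 102 kb from the start of the neuropeptide FF receptor gene Npffr2, had 4.25 and 3.88, 1.24 and 0.81, and 1.28 and 0.73. In each of these 3 the fed libraries stood more than 2 log2 units above all others. Region 29756, 206 kb from Slc35b3, was less even, with 4.34 and 2.33 in fed against 0.56 and -0.80 in fasted and 0.15 and 0.28 in leptin libraries, and, like regions 56099, 5950 and 40020, it does not pass the rule without fed 1. The exception in position was region 56099, in an intron of Sncaip, the gene of synphilin-1, 5.08 kb from its start. It had 3.34 and 2.90 in fed, 0.29 and -0.18 in fasted and 0.06 and -0.02 in leptin libraries. Regions 5950, 40020 and 109460 lay 538 to 825 kb from the nearest start sites, those of Rgs18, Cdh12 and Gm10283.

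The members with the highest mean included the few strong elements of the set. Region 92911 (chr6:5374650-5375644), 8.24 kb from the start of Asb4, a ubiquitin ligase adaptor that marks arcuate neurons, had 6.01 and 5.88 in fed, 4.79 and 4.75 in fasted and 4.56 and 4.60 in leptin libraries. Region 10001 (chr10:20088736-20089832), in an intron of Map3k5, the stress kinase ASK1, had 5.88 and 5.75, 4.41 and 4.35, and 4.72 and 4.62. At both regions replicates lay within 0.5 of each other and the fed libraries were apart from the rest. Region 71891 (chr3:37769041-37769852) had 6.07 and 6.03 in fed, 4.94 and 4.37 in fasted and 4.14 and 4.18 in leptin libraries, with a leptin difference of -0.49 just inside the limit. Promoters were represented by region 81091 at Ak4, the gene of a mitochondrial adenylate kinase (5.34 and 5.44, 4.43 and 4.30, 4.76 and 4.80), and region 43103 at Gm17597 and Tef, the gene of a PAR bZIP factor with a circadian rhythm (5.53 and 5.87, 4.31 and 4.95, 4.22 and 4.46). Region 9128 (chr10:3109500-3117092), the one with the highest mean, was 7593 bases long and its centre was 100% soft-masked repeat. Its replicates disagreed, with 7.01 and 6.03 in fed and 4.98 and 5.94 in leptin libraries, and reads in such a repeat may not be placed uniquely.

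**Figure D2:**
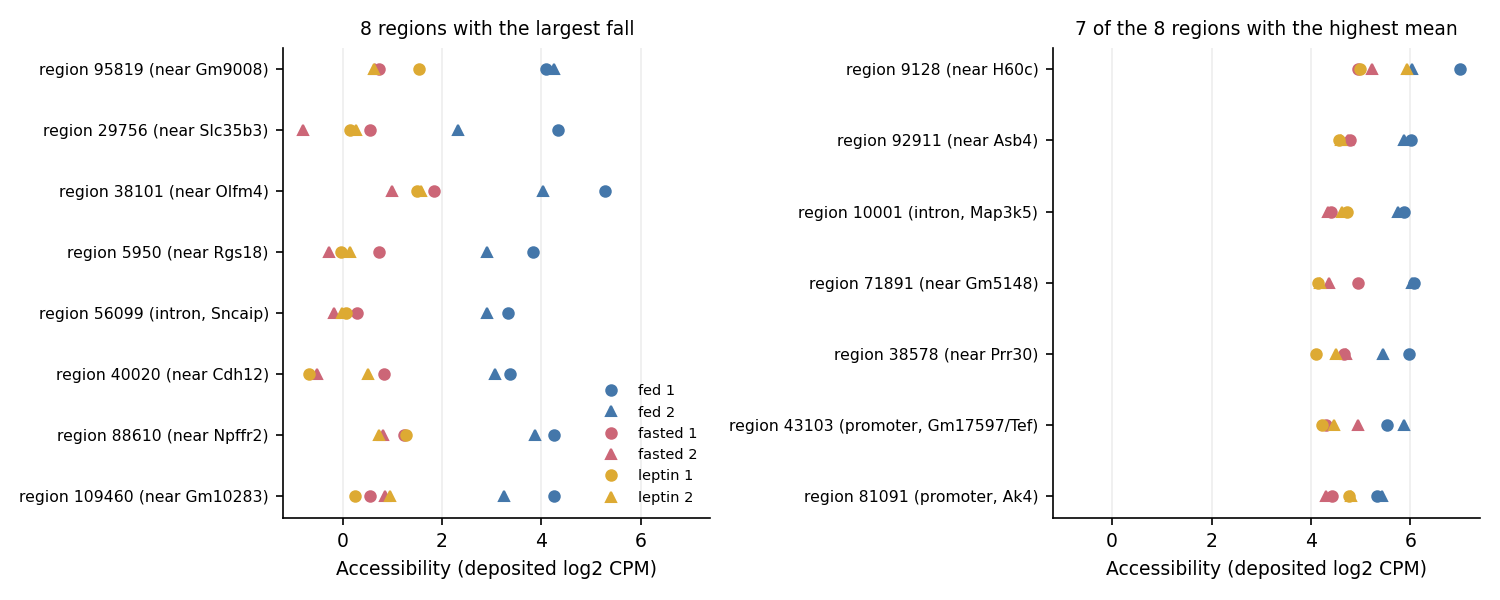
Deposited log2 CPM (x axis) in each of the 6 ATAC-seq libraries for the 8 members with the largest fall (left) and 7 of the 8 with the highest mean (right), with circles for replicate 1 and triangles for replicate 2. The nearest or overlapping gene is given in brackets. In region 95819 the fed libraries are at 4.10 and 4.26 and the other 4 at or below 1.54.

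The sequence motif with the widest gap to all regions and to the opened regions was AP-1 (TGANTCA, bound by Fos and Jun proteins). It was found in the central 300 bases of 167 members (5.45%), against 30.3% of all regions, 75% of the regions opened by fasting and 15.6% of constant regions. Against constant regions, 42.3% of which lay at promoters, the gap of the GC box was wider (4.08% against 34.2%). Away from promoters the shares were 5.60% of 2964 members, 36.3% of all regions and 23.7% of constant regions, and at a GC content of 40 to 50% they were 5.80%, 40.4% and 28.5%. The members that pass without fed 1 held it at 6.00%. Motifs were searched on both strands, and the shares for all regions include the members and the opened regions.

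The STAT motif was in 464 members (15.1%), against 12.0% of all regions, 8.51% of constant regions and 10.2% of opened regions. The regions closed by fasting that were higher again with leptin, by at least 0.5, held it at 35.8% of 1107. The members that pass without fed 1 held it at 13.2%. Away from promoters the share of members was 15.1% against 13.7% of all regions, and at a GC content of 40 to 50% it was 14.8% against 14.9%, so that at like position and base composition the members were near the share of all regions. Constant regions held it at 11.2% away from promoters and at 13.3% within that range of GC content. The regions closed by fasting that were lower still with leptin (847) held the STAT motif at 11.8%. AP-1 was in 6.23% of the regions higher and 4.37% of those lower with leptin, near the 5.45% of the members, and 36 members (1.17%) held a STAT and an AP-1 motif.

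The RFX motif (the palindrome bound by RFX factors, matched to a 14-base consensus) was in 79 members (2.58%), against 1.18% of all regions, 0.144% of opened regions, 0.542% of the closed regions that were higher and 1.42% of those lower with leptin, and 1.25% of constant regions. It was in 2.81% of the members that pass without fed 1. At a GC content of 40 to 50% away from promoters the shares were 2.71% of members, 1.32% of all and 1.85% of constant regions. Interferon-stimulated response elements (GAAA, any 2 bases, GAAA) were in 5.38% of members and 3.96% of all regions. Motifs of SOX (AACAAAG, 9.59% against 7.43%), forkhead (TGTTTAC, 5.90% against 4.41%) and homeodomain factors (TAATTA, 7.63% against 5.53%) were each somewhat above the share of all regions, and at a GC content of 40 to 50% away from promoters they were near it, at 9.47% against 9.49%, 5.73% against 5.61% and 8.05% against 7.27%. The GC box (GGGCGG, 4.08% against 18%), the ETS motif (CCGGAAG, 1.37% against 4.14%) and the NRF1 motif (0.0326% against 1.49%), which are typical of promoters, were below the share of all regions, in a set with few promoters. The CCAAT box (34.9% against 31.7%), the neuronal E-box (CAGATG, 24.9% against 23.3%), MEF2 (5.22% against 4.56%) and the glucocorticoid half-site pair (6.33% against 7.63%) differed little. None of the 19 motifs searched was in 648 members (21.1%).

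**Figure D3:**
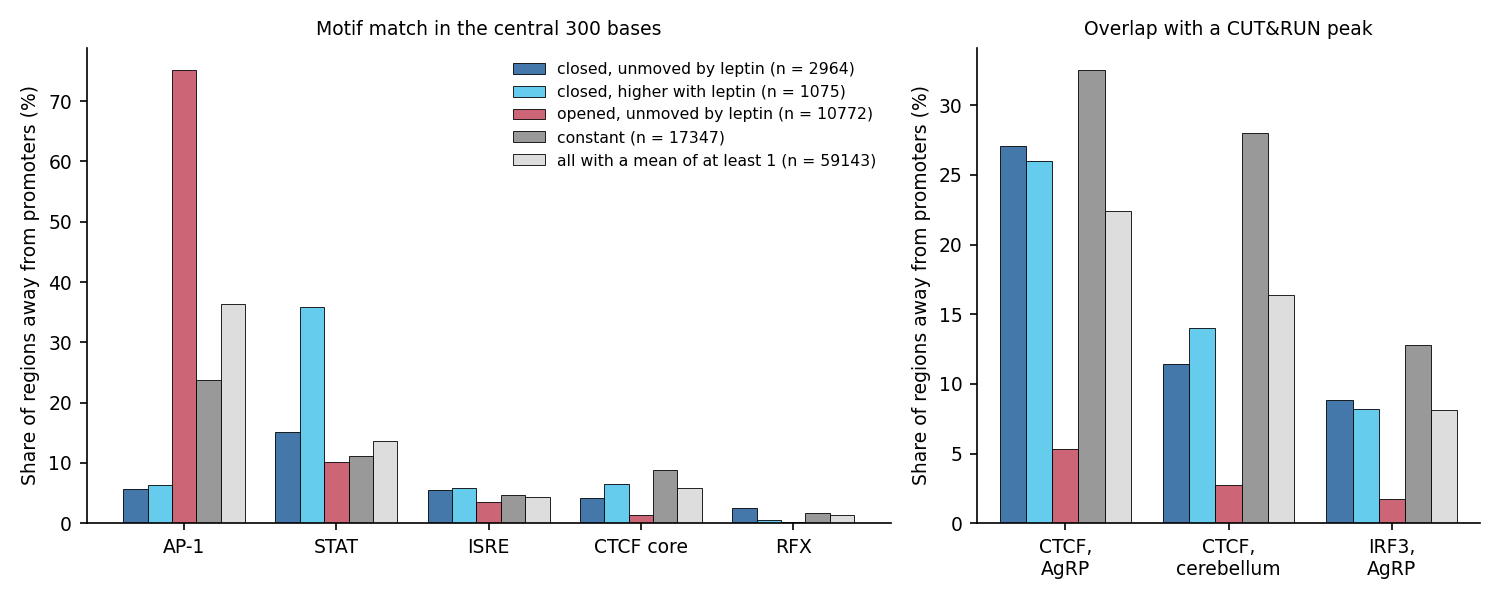
Share of regions away from promoters (y axis, %) with a motif match in the central 300 bases (left) or an overlapping CUT&RUN peak (right; CTCF in AgRP nuclei, CTCF in 50K cerebellum nuclei, IRF3 in AgRP nuclei), for 5 sets of regions. AP-1 was in 5.60% of the closed and leptin-unmoved regions against 36.3% of all, while CTCF peaks of AgRP nuclei overlapped 27.1% of them against 5.33% of the opened regions.

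CTCF peaks of AgRP nuclei overlapped 824 members (26.9%), against 25.5% of all regions, 36.1% of constant regions and 5.3% of the opened regions. CTCF peaks of cerebellum (50K nuclei) overlapped 11.7% of members, against 25.5% of all regions and 44.5% of constant regions. A CTCF peak in AgRP nuclei with none in that cerebellum list was found at 588 members (19.2%), against 10.1% of all regions, and away from promoters at 19.4% against 11.4%. By its label the AgRP list was made from far fewer nuclei than the 50K cerebellum list. It has 51182 peaks at a median fold enrichment of 3.35, against 55326 peaks at 7.45. The part of this unlike input was not tested, so such peaks are not read as sites particular to AgRP neurons. Of the other regions closed by fasting, CTCF peaks of AgRP nuclei overlapped 25.7% of those higher and 26.3% of those lower with leptin, and 14.5% and 24.4% of them had such a peak with none in cerebellum; the differences between these sets were not tested. In the members that pass without fed 1, CTCF peaks of AgRP nuclei overlapped 27.0% and those of cerebellum 10.0%. With only the peaks at or above the median fold enrichment of the list, CTCF in AgRP nuclei overlapped 18.5% of members against 20.7% of all regions, which turns the order of the shares. CTCF peaks at members were of lower fold enrichment, with a median of 4.05 against 4.98 at all regions. The CTCF core (CCA, any 2 bases, AG, any 2 bases, GGC) was in 129 members (4.21%, against 5.29% of all regions). Among these 129, 88 (68.2%) had a CTCF peak in AgRP nuclei, 98 (76%) had one in cerebellum and 43 (33.3%) had an IRF3 peak, whereas the 2937 members without the core had 25.1%, 8.92% and 7.97%. Most members with a CTCF peak in AgRP nuclei thus lacked the core motif in their centre, and 71 members had a CTCF peak in all 5 lists.

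IRF3 peaks, from AgRP nuclei of the IRF3-2D model, overlapped 277 members (9.03%), against 12.4% of all regions, 20.9% of constant and 1.72% of opened regions, and away from promoters 8.87% of members against 8.10% of all regions. Of the members that pass without fed 1 they overlapped 8.57%. They overlapped 17 of the 165 members with an interferon-stimulated response element (10.3%) and 8.96% of those without, and 165 of the 277 also had a CTCF peak in AgRP nuclei. The 5 members with the highest IRF3 signal all had CTCF peaks in AgRP nuclei and in cerebellum, and none of the 5 passes the rule without fed 1. For these overlaps of IRF3 and CTCF peaks the share over all 9268 regions with an IRF3 peak is not given. They are therefore not read as particular to the members. Region 74383 (chr3:96044538-96045017), in an intron of the vesicle-sorting gene Vps45, had a maximum IRF3 signal of 57 and a CTCF fold enrichment of 26.3. Region 33446 (chr13:110368391-110369105), 11.5 kb from Gapt and printed above with its 4 CTCF cores, had 55 and 28.7, followed by regions 61538 (52), 36867 (43) and 9382 (41), of which 61538 and 9382 also hold the core. Each list is of 1 sample, so these shares have no replicate check, and the IRF3 list was assigned as the only list of its kind in the series, without a name that says IRF3.

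Whether the members are accessible in AgRP neurons rather than in other cells of the arcuate nucleus was asked in the sorted nuclei, whose libraries the rule did not use. Of the 3066 members, 2539 (82.8%) overlapped a region of that table, and 2537 nuclei regions at members entered the quasi-likelihood test of edgeR. A region was called at an adjusted p under 0.05 (the false discovery rate, FDR) with a log2 fold change beyond 0.5 in either direction. Of the 2537, 1030 (40.6%) were higher in AgRP(+) nuclei, where the share over all 66560 regions tested was 23.9%, and 232 (9.14%) were lower, where it was 15.6%. The median log2 fold change at members was 0.61 (quartiles -0.18 and 1.52), against -0.00 over all regions. Against the nuclei regions at all regions with a mean of at least 1, of which 29.9% were higher and 8.71% lower (median 0.17), the share higher was less far apart and the share lower was not below it. The count of members that were lower was 133 with DESeq2 and 142 with library-size scaling, and that of members that were higher was 785 and 1150. In the same fits 10.6% and 11% of all regions tested were lower, and 17.4% and 27.4% higher. Median levels were 5.33 and 5.66 CPM in AgRP(+) and 3.45 and 3.43 CPM in AgRP(-) nuclei. The excess went with position: away from promoters 41.3% of members were higher and 8.62% lower (median 0.64), and of all regions away from promoters 39.9% were higher and 7.67% lower (median 0.64). The 79 members tested at promoters had 17.7% higher and 25.3% lower, against 4.64% and 11.3% of all promoter regions. The AgRP(-) nuclei were those without the tag, so they mix the other cell types of the dissected tissue.

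The size of the difference between AgRP(+) and AgRP(-) nuclei went with the size of the fall. Of members that fell by 1 to 1.25, 28% were higher in AgRP(+) nuclei and 11.8% lower, with a median log2 fold change of 0.24. The share higher was 39.3% at a fall of 1.25 to 1.5 (median 0.62), 54.1% at 1.5 to 2 (1.07) and 71.2% at 2 or more (1.43), where 2.97% were lower. GC content fell along the same bands, with medians of 47%, 45.3%, 42.3% and 40%, and the level in the fed libraries rose along them, with medians of 2.70, 2.76, 2.84 and 3.31 log2 CPM, in nuclei that were sorted from fed mice. The part of base composition and of the fed level in this order was not tested. Members in the lowest, middle and highest part by mean level (1024, 1021 and 1021 regions) were higher in AgRP(+) nuclei in 26.5%, 37.9% and 52.5% of cases. Regions that fell and were higher again with leptin had 59.2% higher, those that fell further with leptin 65.6% and the opened regions 59.7%, all above the 40.6% of the members; these differences between sets were not tested. Of the opened regions 33.1% overlapped a region of the nuclei table, which was made from fed mice, against 82.8% of members. Among the 1421 tested regions at members that pass without fed 1, 656 (46.2%) were higher and 132 (9.29%) lower.

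**Figure D4:**
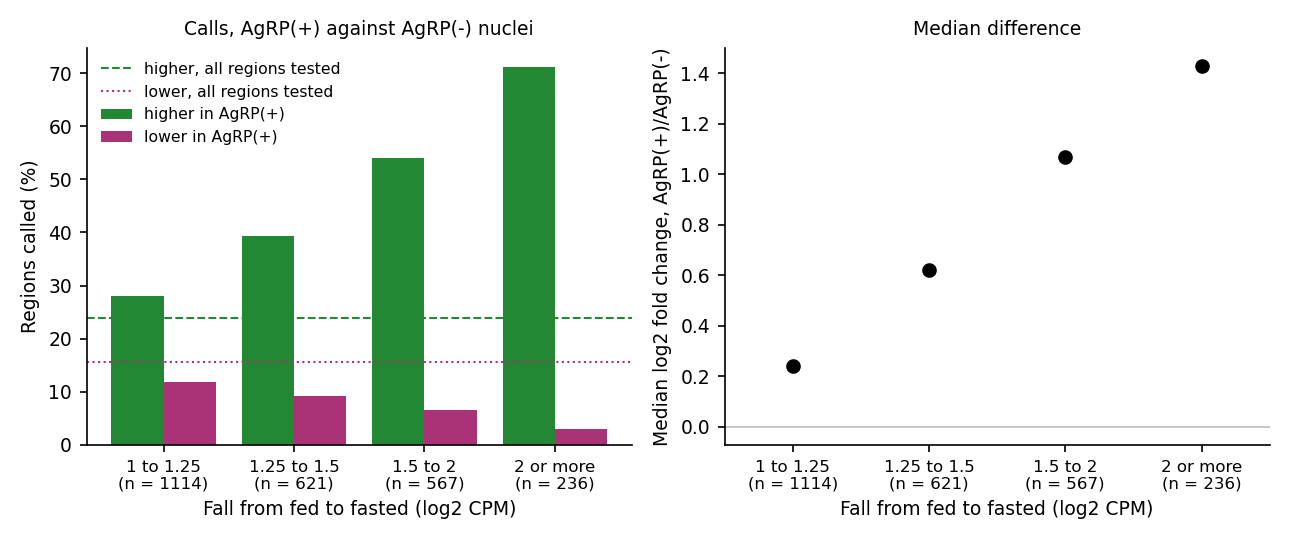
Members grouped by the size of their fall from fed to fasted (x axis, log2 CPM), with the share called higher or lower in AgRP(+) than AgRP(-) nuclei (left, %; lines give the shares over all 66560 regions tested) and the median log2 fold change (right). The share higher goes from 28% at a fall of 1 to 1.25 to 71.2% at 2 or more.

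The 5 members with the largest called difference toward AgRP(+) nuclei had low levels in AgRP(-) nuclei. Region 66096 (chr2:103990091-103990942), in an intron of 4931422A03Rik and 20.3 kb from the start of Lmo2, had 31.9 and 39.6 CPM in AgRP(+) and 1.97 and 1.66 CPM in AgRP(-) nuclei, a log2 fold change of 4.30 ± 0.27 (SE, adjusted p = 7.7e-51 by edgeR). Region 99484 (chr6:141889382-141890270), 33.7 kb from Slco1a4, had 32.4 and 30.8 CPM against 1.6 and 1.78 CPM, 4.22 ± 0.29 (adjusted p = 4.6e-45 by edgeR). Region 78045, 4.44 kb from Triqk, had 4.32 ± 0.44, region 11866, 914 kb from Lrrtm3, had 4.27 ± 0.34, and region 113633, 127 kb from Ddi1, had 4.11 ± 0.38. Of these 5, regions 78045, 99484 and 113633 hold a STAT motif. In the 3 states region 66096 had log2 CPM values of 5.71 and 5.36 in fed, 4.47 and 3.38 in fasted and 4.20 and 3.40 in leptin libraries. Regions 95819 (2.60 ± 0.31) and 92911 (2.21 ± 0.19), described above, were also higher in AgRP(+) nuclei, as was region 38578, 67.5 kb from Prr30 and among the members with the highest mean (2.85 ± 0.24). It had 5.98 and 5.46 log2 CPM in fed, 4.67 and 4.71 in fasted and 4.11 and 4.51 in leptin libraries. Toward AgRP(-) nuclei the largest differences were smaller: region 19182, 24.4 kb from Rph3al, had 0.977 and 0.75 CPM in AgRP(+) and 4.68 and 2.72 CPM in AgRP(-) nuclei (-2.08 ± 0.58, adjusted p = 0.00146 by edgeR), region 43438, 31.2 kb from Wnt7b, had -1.99 ± 0.26, and regions 6249, 23734 and 27074 had -1.97, -1.83 and -1.82. The promoter region 43103 at Tef was also lower (-1.17 ± 0.14), as was region 9128, the long repeat (-0.67 ± 0.08).

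RNA was read next, at the genes whose promoters hold a member. The RNA libraries numbered 4, of which each state had 1, stood apart. Their summed level of the 8 astrocyte markers was 20196 CPM (fed), 24333 CPM (fasted) and 24474 CPM (leptin), against 2914 to 5119 CPM in the other 8 libraries. Most of this sum was 1 gene, the glutamate transporter gene Slc1a2 (mean 8374 CPM). The levels of the other astrocyte markers are not given here, so the sum is not read as a level of astrocytes. Each state had such a library, and counts are given with and without them. From fed to fasted the median log2 fold change was -0.62 over 5 microglia, -0.42 over 9 oligodendrocyte and -0.11 over the 8 astrocyte markers. It was 0.09 over 7 tanycyte and ependymal markers. By edgeR and DESeq2 0 of these were called. With the replicate number as a block 2 microglia, 1 oligodendrocyte and 1 astrocyte marker were lower, where 2.54% of all genes were. Fewer cells of a type and less RNA per cell cannot be told apart in bulk libraries of pooled tissue.

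A member lay at the promoter of 108 annotated genes, of which 64 had a row in the RNA table and 45 passed the filter of a mean over 1 CPM. Of the 45, 3 (6.67%) were lower in fasted than in fed mice, where 1.07% of all 13401 genes tested were lower, and 0 were higher, where 2.82% were. DESeq2 called 4 lower and 0 higher, where 1.6% and 3.33% of all genes were. At an unadjusted p under 0.05 in edgeR, 11 were lower and 1 higher. Here and below, counts at that unadjusted limit are given without the share of all genes and are not read as a result. Of the 45, 34 had a negative log2 fold change and 11 a positive one, with a median of -0.16, against 6289 and 7112 of all genes and a median of 0.02. The 3 genes called were L3mbtl1, Gstt1 and Htatip2. Comparisons of fasted with fed and of leptin with fasted share the fasted libraries.

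L3mbtl1 encodes a chromatin protein that binds methylated histones. Its RNA was 10.9, 8.97 and 9.68 CPM in the fed libraries, 5.22, 4.45, 5.18 and 6.87 CPM in the fasted and 4.41, 4.87, 4.56 and 5.76 CPM in the leptin libraries. Every fed library was above every fasted and leptin library, and the log2 fold change from fed to fasted was -0.86 ± 0.15 (SE, adjusted p = 0.00908 by edgeR). Its promoter region 69406 (chr2:162942806-162943788) had 4.67 and 4.54 log2 CPM in fed, 3.50 and 3.53 in fasted and 3.67 and 3.84 in leptin libraries. Gstt1, the gene of a glutathione S-transferase of the theta class, had 5.95, 6.01 and 5.55 CPM in fed, 3.74, 3.9, 3.55 and 2.74 CPM in fasted and 2.71, 3.07, 3.36 and 3.84 CPM in leptin libraries, with no overlap between fed and the rest (-0.74 ± 0.15, adjusted p = 0.0165 by edgeR). Region 12483 (chr10:75797666-75798676) at its promoter had 3.55 and 3.46, 2.05 and 2.47, and 2.23 and 2.38. Htatip2 encodes a short-chain dehydrogenase-like protein also known as TIP30. It had 6.38, 7.22 and 6.63 CPM in fed, 4.31, 4.33, 3.76 and 3.87 CPM in fasted and 3.39, 4.41, 4.66 and 3.81 CPM in leptin libraries, again apart (-0.73 ± 0.13, adjusted p = 0.00855 by edgeR). Region 101607 (chr7:49759043-49759460) had 3.70 and 3.14, 2.42 and 2.30, and 1.79 and 2.37. None of the 3 promoters passed the test between AgRP(+) and AgRP(-) nuclei, with log2 fold changes of 0.16 ± 0.19, -0.38 ± 0.25 and -0.52 ± 0.27. The call of Htatip2 held in all 13 fits run, that of L3mbtl1 in 12, with an adjusted p of 0.052 without fed 1, and that of Gstt1 in 9, being lost with library-size scaling and without fasted 3, fed 1 or fed 3. Region 101607 at Htatip2 does not pass the rule without the ATAC-seq library fed 1.

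Below the threshold on fold change, Ak4 had 52 ± 5.17 CPM (SD, n = 3) in fed, 37 ± 5.95 CPM (n = 4) in fasted and 38.6 ± 1.08 CPM (n = 4) in leptin libraries, a log2 fold change of -0.49 ± 0.11 (SE, adjusted p = 0.0324 by edgeR). Ak4 had an adjusted p of up to 0.118 when 1 library was dropped and passed both thresholds in 5 of 13 fits. With the libraries numbered 4 left out it was at -0.54 (adjusted p = 0.00423), and with the replicate number as a block at -0.49 (adjusted p = 0.00099, both by edgeR). Ndrg1, a stress-induced gene, had -0.43 ± 0.09 (adjusted p = 0.0253) and Oplah, the gene of 5-oxoprolinase, -0.42 ± 0.10 (adjusted p = 0.0335, both by edgeR). Without the libraries numbered 4, 5 of the promoter genes were lower and 0 higher, in a fit that called 2.27% of all genes lower and 3.01% higher. Of the 24 genes tested whose promoter member passes without the ATAC-seq library fed 1, 2 were lower and 0 higher by edgeR in the full set of RNA libraries. In that fit 1.07% of all genes were lower and 2.82% higher. Most of the other promoter genes, such as Map2, Cnr1 and Elavl2, had log2 fold changes of -0.09 ± 0.17, -0.12 ± 0.16 and -0.09 ± 0.18.

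From fasted to leptin, 1 of the 45 genes (2.22%) was higher, against 1.19% of all genes tested, and 0 were lower, against 0.634%. At an unadjusted p under 0.05 in edgeR 1 was higher and 1 lower. DESeq2 called 1 higher and 0 lower, where 1.57% and 0.798% of all genes were. The median log2 fold change was 0.02. The gene was Tanc1, which encodes a postsynaptic scaffold protein and is named here after its values were seen. It had 26.3, 19.8 and 30.5 CPM in fed, 17.7, 29.4, 18.3 and 16.3 CPM in fasted and 40.9, 35.4, 42 and 37.7 CPM in leptin libraries, so that all leptin libraries were above all others (0.93 ± 0.19 against fasted, adjusted p = 0.0274 by edgeR). Region 64032 (chr2:59645374-59645955) at its promoter had 3.98 and 2.94 log2 CPM in fed, 1.79 and 1.75 in fasted and 2.10 and 2.30 in leptin libraries, and it holds a STAT motif. The call was lost with library-size scaling (adjusted p = 0.057) and when any of 6 single libraries was dropped (fasted 1, 3 and 4 and leptin 1, 2 and 3; up to 0.0977), and was kept without the libraries numbered 4 (0.0492, all by edgeR). The regions opened by fasting had 145 tested promoter genes, of which 27 (18.6%) were higher in fasted mice and 2 (1.38%) lower. Of all genes tested 2.82% were higher and 1.07% lower. The difference between this set and the members was not tested.

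**Figure D5:**
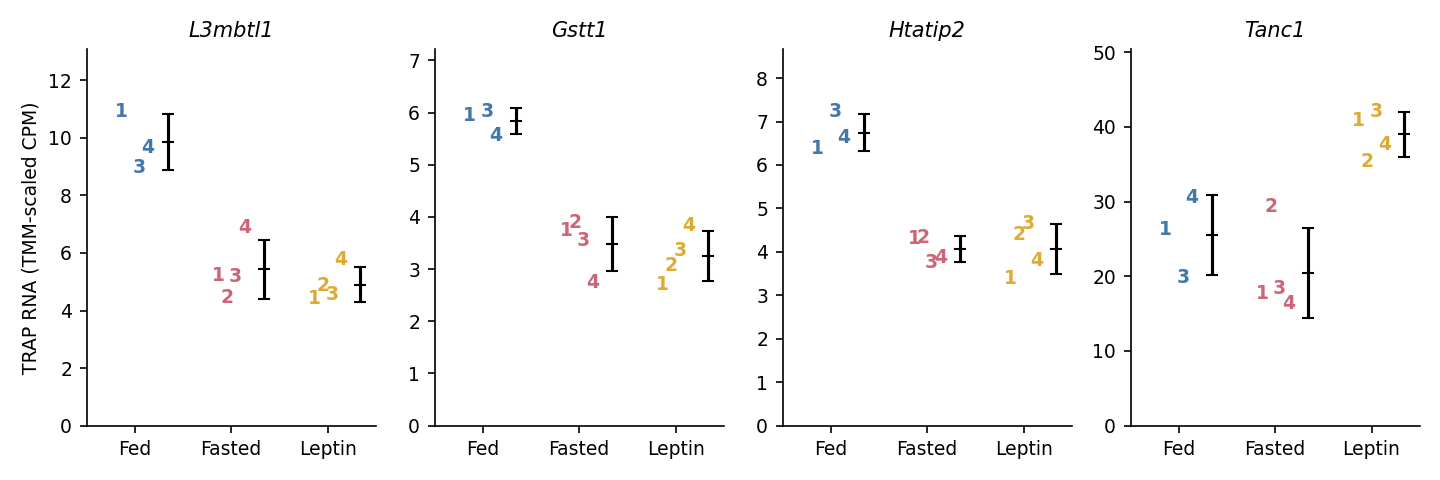
TRAP RNA (y axis, TMM-scaled CPM) in each fed, fasted and leptin library (numerals are the library numbers; bars are mean ± SD) of the 3 genes with a member at the promoter that were lower in fasted mice and of Tanc1, which was higher with leptin. For L3mbtl1, Gstt1 and Htatip2 the 3 fed libraries lie above all fasted and leptin libraries.

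Genes that hold a member anywhere between their start and end numbered 1216, and 1082 of them were tested. Of these, 26 (2.4%) were higher and 22 (2.03%) lower in fasted mice, where 2.82% and 1.07% of all genes were, with 664 below 0 and 418 above and a median of -0.05. With leptin 16 (1.48%) were higher and 5 (0.462%) lower, where 1.19% and 0.634% of all genes were. With the nearest start site within 200 kb as the link, 25 of 1125 genes were lower and 20 higher in fasted mice.

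The 9 genes with 5 or more members spanned 338 to 2961 kb in the annotation. Opcml, an adhesion molecule gene of 1135 kb, held 8 members among 37 regions, and Ctnna2, the gene of the neuronal alpha-catenin that links cadherins to actin, held 7 among 44. Fgfr2, a fibroblast growth factor receptor gene annotated over 2961 kb, held 6 among 126 and Sdk1, the gene of a synaptic adhesion protein, 6 among 34. Anks1b, the gene of a postsynaptic density protein, held 5 among 47, as many members as Clstn2, Itpr1, Nav2 and Prkg1. Over all regions with a mean of at least 1, the ones counted in these genes and in the lists below, the share of members was 4.09%. That base includes promoters, and away from promoters 2964 of 59143 such regions were members. The counts below of listed genes that hold a member have no share over all genes beside them. The lists were not matched for gene length, so these counts are not read as a result. Ctnna2 had 145 ± 13.7 CPM (SD, n = 3) in fed, 115 ± 6.54 (n = 4) in fasted and 114 ± 2.44 CPM (n = 4) in leptin libraries (-0.34 ± 0.08, adjusted p = 0.0316 by edgeR, under the limit on fold change), and Opcml, Fgfr2, Sdk1 and Anks1b had log2 fold changes of -0.06 ± 0.63, -0.50 ± 0.32, -0.02 ± 0.09 and 0.01 ± 0.12. In the libraries numbered 4, in which the summed astrocyte markers, mostly Slc1a2, were high, Opcml was at 575 to 741 CPM. In the other 8 it was at 174 to 266 CPM.

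In a list of 19 genes of axon guidance and adhesion, 12 held a member, and 32 of the 359 regions in them (8.91%) were members. Region 94625 in Cntnap2, a neurexin-family gene, had 3.66 and 2.53 log2 CPM in fed, 0.89 and -0.52 in fasted and 0.40 and 0.63 in leptin libraries. Region 47670 in Robo2, the gene of a receptor for Slit guidance cues, had 4.57 and 3.76, 1.79 and 1.17, and 1.64 and 2.24. Region 2559 in Erbb4, region 108290 in Unc5d and regions 95870 and 95895, of the 7 members in Ctnna2, fell by 1.80 to 1.99. By RNA, Sema3a, the gene of a repulsive guidance cue, was higher in fasted mice (0.76 ± 0.17, adjusted p = 0.0275 by edgeR), a call held in 7 of 13 fits. Of the 19, 0 were lower by edgeR, 1 by DESeq2 and 2 with the replicate number as a block, where 1.07%, 1.6% and 2.54% of all genes were. At an unadjusted p under 0.05, 4 were lower. Robo2 had -0.65 ± 0.18 (adjusted p = 0.0589), and was lower with the replicate number as a block (adjusted p = 0.000546 by edgeR).

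Of 16 potassium and calcium channel genes, 12 held a member (18 of 326 regions, 5.52%). Region 85240 in Cacna2d1, a calcium channel subunit gene, had 3.54 and 2.88 in fed, 1.03 and 0.26 in fasted and 0.61 and 0.78 in leptin libraries, and region 87084 in Kcnip4, which encodes a subunit of A-type potassium channels, 3.92 and 2.88, 1.08 and 0.65, and 0.79 and 0.34. Region 63843 in Kcnj3, the gene of the GIRK1 channel, had 3.55 and 3.58, 1.55 and 1.36, and 1.15 and 1.48. The RNA of Cacna2d3, with region 35211 in an intron, was lower in fasted mice (54.4 ± 3.25 CPM to 36.4 ± 3.61 CPM, SD, n = 3 and n = 4, -0.58 ± 0.10, adjusted p = 0.00904 by edgeR) and at 35.7 ± 3.82 CPM with leptin, while that of Kcnc2, a Kv3 channel gene, was higher (0.53 ± 0.13, adjusted p = 0.0375, in 4 of 13 fits).

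Of 17 receptor genes for GABA and glutamate, 7 held a member (15 of 240 regions, 6.25%), and by RNA 0 were called by edgeR in either direction. In fasted mice 1 was lower at an unadjusted p under 0.05 and 1 by DESeq2, which called 1.6% of all genes lower. Region 99100 in Grin2b, the gene of an NMDA receptor subunit, had 3.32 and 2.42 in fed, 0.04 and 0.70 in fasted and 0.24 and 0.78 in leptin libraries and holds a STAT motif. Region 44985 in Grin2a had 3.76 and 3.26, 1.32 and 1.72, and 1.15 and 1.99, and region 97672 in Grm7 had 3.86 and 3.17, 1.86 and 0.86, and 1.10 and 1.19. Region 79069 in Gabbr2, a GABA-B receptor gene, was lower in AgRP(+) nuclei (-1.22 ± 0.32), and those in Grik2 (1.28 ± 0.36) and Grm7 (1.61 ± 0.36) were higher.

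In 12 genes of leptin and STAT3 feedback, 1 of 40 regions (2.5%) was a member, against 4.09% of all. By RNA, 3 of these genes (Socs3, Cish and Socs1) were lower in fasted mice and 7 higher with leptin, where 1.07% and 1.19% of all genes were. That region, 81133 in an intron of the leptin receptor gene Lepr, had 2.57 and 2.11 log2 CPM in fed, 2.10 and 0.33 in fasted and 2.23 and 0.63 in leptin libraries. Its replicates differed by more than its states, in both the fasted and the leptin pair. Region 81126 (chr4:101701105-101702320), 15.7 kb from the start of Lepr and named after its values were seen, had 5.53 and 5.34 in fed, 4.79 and 3.96 in fasted and 4.84 and 4.53 in leptin libraries, and 51.1 and 51.5 CPM in AgRP(+) against 5.91 and 4.85 CPM in AgRP(-) nuclei (3.25 ± 0.20). The RNA of Lepr was 78.7 ± 36.2 CPM (SD, n = 3) in fed and 180 ± 26.6 CPM (n = 4) in fasted mice and missed the FDR threshold (1.19 ± 0.31, adjusted p = 0.0522 by edgeR), and it was called higher with the replicate number as a block (adjusted p = 7.8e-05). Of 14 genes of insulin and FoxO signalling, Akt1, Foxo1 and Igf1r held members (4 of 61 regions, 6.56%). Region 102580 in Igf1r, the IGF1 receptor gene, had 4.64 and 3.86 in fed, 2.35 and 2.10 in fasted and 1.88 and 1.99 in leptin libraries and was higher in AgRP(+) nuclei (2.32 ± 0.32). By RNA, 0 of the 12 tested genes of the list were called in fasted mice by edgeR or DESeq2, and 1 was higher at an unadjusted p under 0.05. With the replicate number as a block 1 was called higher, where 4.4% of all genes were.

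Of 16 glucocorticoid and nuclear receptor genes, 4 (Fkbp5, Nr3c2, Nr5a2 and Rora) held 7 members among 116 regions. Nr3c2, the mineralocorticoid receptor gene with regions 110381 and 110387 in its introns, had RNA of 30 ± 0.935 CPM (SD, n = 3) in fed, 25.7 ± 3.07 CPM (n = 4) in fasted and 54 ± 6.71 CPM (n = 4) in leptin libraries, higher with leptin by 1.07 ± 0.11 (adjusted p = 0.000411 by edgeR), while region 110381 had 3.08 and 2.55 log2 CPM in fed, 0.50 and 1.42 in fasted and 0.67 and 0.78 in leptin libraries. Fkbp5, a glucocorticoid-induced gene, was higher in fasted mice (0.84 ± 0.20, adjusted p = 0.0324 by edgeR, in 7 of 13 fits), while its region 50266 had 2.02 and 1.60, 0.74 and 0.65, and 0.06 and 1.08. Feeding peptide receptors held 1 member in 57 regions (Glp1r), TGF-beta and BMP genes 1 in 45 (Bmp3), interferon regulatory factors 1 in 12 (Irf2), AgRP neuron markers 1 in 52 (Lepr), POMC neuron markers 0 in 9 and immediate early genes 0 in 28. By RNA, 5 of 18 tested immediate early genes (Fos, Junb, Nr4a1, Npas4 and Myc) were higher in fasted mice, where 2.82% of all genes were. With the replicate number as a block 9 were higher, where 4.4% of all genes were. General neuron markers held 7 in 92 regions. Astrocyte markers held 1 in 21 (Aldh1l1), endothelial and mural markers 1 in 19 (Pdgfrb), and markers of oligodendrocytes (17 regions), their precursors (7), microglia (11) and tanycytes and ependyma (16) held 0.

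Kank4 and Bmp3, which the study itself chose on these samples to show beside closed regions and which are therefore not independent evidence, held 3 members among 8 regions. Region 80948 in an intron of Kank4, which encodes an adaptor of the cortical cytoskeleton, had 3.95 and 3.35 in fed, 1.55 and 1.17 in fasted and 1.36 and 1.99 in leptin libraries and was higher in AgRP(+) nuclei (1.19 ± 0.36). A further region in Kank4, 80950, had 2.48 and 1.46, 0.56 and 1.09, and 0.73 and 0.96, and was lower in AgRP(+) nuclei (-1.57 ± 0.40). Kank4 RNA was 15.9, 16.9 and 15.5 CPM in fed, 10.1, 10.4, 9.27 and 10.3 CPM in fasted and 9.74, 10.3, 9.4 and 9.13 CPM in leptin libraries. It was lower in fasted than in fed mice (-0.69 ± 0.08, adjusted p = 0.00155 by edgeR), differed by -0.05 ± 0.08 between leptin and fasted mice, and the fed libraries overlapped none of the others. Bmp3, the gene of a BMP family ligand, had 24.8, 23.7 and 32.6 CPM in fed, 11.1, 8.99, 8.42 and 18.6 CPM in fasted and 11.6, 11.9, 9.74 and 15.7 CPM in leptin libraries (-1.20 ± 0.26 from fed to fasted, adjusted p = 0.024 by edgeR, and up to 0.0983 when 1 library was dropped). Region 88916 in its intron had 2.63 and 2.65, 1.32 and 1.75, and 1.90 and 1.86.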

How the data were processed

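Nuclei and ribosome-bound RNA of tagged AgRP neurons were profiled as described above. The deposited ATAC-seq counts are reads per merged MACS2 peak on mm10, and the log2 CPM table that defines the regions was deposited with them. For these the authors name BEDtools (merging and counting), Bowtie2 (alignment) and SAMtools (removal of duplicates). RNA counts per gene were made by the authors with HISAT2 and featureCounts. Versions are not given in the sources used here. The deposited CTCF CUT&RUN lists hold a fold enrichment per peak, and the deposited IRF3 list holds a SEACR signal per peak; caller settings, controls and build are not given in the sources used here, and they were read as mm10. The IRF3 list is the only SEACR list of the series and was assigned on that ground. The 100K cerebellum sample has a file named for 200K. The IgG sample, whole-arcuate RNA, POMC neuron RNA and the deposited log2 CPM RNA tables were not used here.

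Raw counts of the sorted nuclei (8685497 to 11177208 reads on peaks per library) and of RNA (25581041 to 54511107) were tested with edgeR 4.0.16 (quasi-likelihood, TMM scaling, mean CPM over 1) in R 4.3.3, with DESeq2 1.42.0 as an alternative. Calls needed an FDR under 0.05 and a log2 fold change beyond 0.5, adjusted over all features. CPM values are TMM-scaled. On simulated data with 200 changed features, 28% were recovered for the nuclei, 79% for fasting RNA and 79.5% for leptin RNA. Overlaps of at least 1 base were found with bedtools 2.31.1, and motifs with Python 3.11.15 in the central 300 bases, from NCBI GRCm38.p6. Genes are those of the GENCODE basic annotation. Nothing states that libraries of a group came from separate experiments, so p-values measure the spread between pools of 4 mice.

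Members, gene lists and motifs were chosen with earlier results of these data known. Named were the 8 members with the largest fall, the 8 with the highest mean, those at promoters of genes called by RNA, the first 30 of 91 in listed genes by size of fall, the 5 with the largest called difference in each direction in the nuclei, the 5 with the highest IRF3 signal and the 5 genes with the most members; not all of these are given a value here; the regions at Tanc1, Glp1r, Foxo1, Irf2, Bmp3 and Fkbp5, those near and in Lepr and region 80950 were named after their values were seen, as were the genes Ak4, Ndrg1, Oplah, Map2, Cnr1 and Elavl2. Alternatives changed the scaling, filter, tool, promoter window, limits of the rule and single libraries. In RNA, deviations of same-numbered libraries from their group means correlated at 0.565 to 0.838 in all 10 pairs, so a block on the number was fitted as an alternative; the labels do not say what the number marks. In the nuclei the correlation was 0.105 in 2 pairs. The paper took AgRP(+) and AgRP(-) nuclei from the same pools, so these libraries are paired, though whether the number marks the pool is not stated. The main fit of the nuclei did not use the pairing. With the number as a block 1091 regions at members were higher and 270 lower, where 25.9% and 17.4% of all regions tested were.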

Additional observations from a re-analysis of the deposited data

Results flagged for a closer look

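Of 26 groups of 4 libraries examined, 4 had a library whose gap to its nearest neighbour, divided by the group's range, exceeded Dixon's critical value for 4 samples, where chance gives about 1 in 20. For Tanc1 RNA the fasted library 2 lay highest (29.4 CPM against 16.3 to 18.3 CPM), with a ratio of 0.851. The summed astrocyte markers were highest in fasted library 4 (24333 CPM, ratio 0.971) and in leptin library 4 (24474 CPM, ratio 0.931). Slc1a2 made up most of these sums. The summed microglia markers were highest in fasted library 4 (37 CPM against 19.2 to 21.7 CPM, ratio 0.86). The part of these libraries in the RNA results was not tested beyond leaving them out.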

How the results depend on the processing

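The number of members was 2948 with TMM scaling and 2644 with library-size scaling, 1340 with a mean of at least 2, 1705 with a leptin limit of 0.25, and 1951 to 5017 when 1 library was left out, lowest without fed 1 and highest without fed 2. In the nuclei, members called lower numbered 133 with DESeq2, 142 with library-size scaling and 126 to 191 when 1 library was left out (126 and 138 without AgRP(-) 1 and 2), against 232, and members called higher 785 and 1150 under the first 2 of these and 738 to 953 under the last, against 1030; among members that also pass without fed 1 they were 656 higher and 132 lower. Library-size scaling moved the median of all nuclei regions to 0.16 and that of members to 0.78. Promoter genes lower in fasted mice numbered 5 without the 3 RNA libraries numbered 4, an alternative chosen after seeing the data, as was the set that passes without fed 1; they numbered 4 with DESeq2 and 1 (without fed 1) to 5 (without fasted 4) with 1 library left out, and 0 were higher in each of these. Of all genes, 2.27% were lower without those 3 libraries and 1.6% with DESeq2, against 1.07%. Linking by the nearest start site gave 20 genes higher and 25 lower in fasted mice, and 23 higher and 10 lower with leptin. With leptin, 0 promoter genes were higher with library-size scaling, 0 with a window of 500 bases, and 0 to 1 with 1 library left out. The share of members at promoters was 2.35% at 500 bases and 5.38% at 2 kb. With only the stronger peaks of each list, those at or above its median, the shares were 18.5% for CTCF and 4.99% for IRF3, against 20.7% and 7.96% of all regions. Members with any of the 19 motifs were 78.9% in the central 300 bases, 90.6% in the whole region and 39.3% in the central 100 bases. The causes of these shifts were not tested.

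With the replicate number as a block, promoter genes numbered 4 lower and 0 higher in fasted mice and 1 higher with leptin. Nuclei regions at members numbered 1091 higher and 270 lower, where 25.9% and 17.4% of all regions tested were. Beside Lepr and Robo2 the block changed no call of the genes in which it was examined by name above. Over all genes it gave 590 higher (4.4%) and 340 lower (2.54%) in fasted mice, against 378 and 143. With leptin it gave 1.81% of all genes higher.

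The main limits are 2 ATAC-seq libraries per state, of which fed 1 is the shallowest, few reads per region, and single CUT&RUN samples.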

Other observations

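Of the 79 members with the RFX motif, 1 (1.27%) overlapped a CTCF peak of cerebellum (50K nuclei), against 12% of those without, while CTCF peaks of AgRP nuclei overlapped 24.1% and 27%. These differences were not tested, and RFX motifs outside the members were not examined for them. Region 109062, in an intron of the interferon regulatory factor gene Irf2, holds an RFX motif and was higher in AgRP(+) nuclei (1.82 ± 0.40, SE, edgeR). Adamtsl3, which encodes an ADAMTS-like matrix protein and holds 4 members among 11 regions, had RNA of 4.57 ± 0.855 CPM (SD, n = 3) in fed and 2.19 ± 0.656 CPM (n = 4) in fasted mice, lower by the edgeR test (adjusted p = 0.0388) in 6 of 13 fits. Asb4, near region 92911, was higher with leptin than in fasted mice (0.80 ± 0.15, adjusted p = 0.0159 by edgeR) in 11 of 14 fits, the call being lost with library-size scaling (adjusted p = 0.0544) and without fasted 3 (0.0518) or leptin 1 (0.0537).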
